A study of Mus musculus with 15 samples.

Results

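L2P, a line of mouse mammary cells recovered from lung after a second round in mice, was compared with M1P, a line recovered from a primary mammary tumour of the same starting cells. The comparison rested on 6 of the study's 15 Affymetrix expression arrays, the 3 of L2P and the 3 of M1P, taken by sample title, and on all 18193 genes that could be named by 1 symbol, each read from the probe set with the highest mean signal over the 15 arrays. Both lines descend from NMuMG, an epithelial line of normal murine mammary gland that forms no tumours, through E1KD, which is NMuMG with hnRNP E1 silenced. M1P was recovered after in vivo passage 1, from the tumour that E1KD cells formed in the mammary fat pad of NOD/SCID mice. L1P came from the lungs of such mice (passage 1), and L2P from the lungs of mice given L1P cells (passage 2). M1P and L2P therefore both carry the hnRNP E1 silencing, though the level of the silenced gene differed between them (below). Between L2P and M1P, site of recovery and number of passages differ together, and this comparison cannot tell them apart. L1P shares its passage number with M1P and its site with L2P, and its level is given for some genes below. Each line is 1 line, recovered from a host that lacks T and B lymphocytes, and whether its 3 arrays stem from separate cultures is not given in the labels. The p-values thus measure the spread between arrays, which may be technical. All 5 lines were grown in DMEM with serum before RNA was extracted.

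hnRNP E1, encoded by Pcbp1, binds C-rich stretches of RNA and holds back the translation of selected messages. Among these are Dab2, an endocytic adaptor, and Fam3c, which encodes the secreted factor ILEI, and TGF-beta signalling releases the block during the epithelial to mesenchymal transition of NMuMG cells. Cells that leave a primary tumour and grow in lung have to survive without their first surroundings, and genes of drug export, growth factor signalling, matrix and secretion are often followed in such lines. The values below are log2 signals, on which a difference of 1 is a 2-fold difference. Values after ± are the standard error (SE) of a difference. A gene is said to have risen or fallen in L2P where limma's adjusted p was under 0.05.

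The M1P arrays differed widely among themselves, and this touches every count below. The median over genes of the SD between a line's 3 arrays was 0.318 in M1P and 0.192 in L2P, against 0.136 to 0.155 in the other 3 lines. Euclidean distances over all genes were 79.5 to 143.1 between M1P arrays, 26.0 to 69.9 between L2P arrays and 66.3 to 189.2 between an L2P and an M1P array. M1P array 1 lay farthest out. It was the lowest M1P array for 1729 of the 2023 genes that rose in L2P and the highest for 2984 of the 3502 that fell. Over the genes that rose, the median difference from the L2P mean was -2.22 for M1P array 1, -1.09 for array 2 and -0.67 for array 3. Over the genes that fell it was 0.97, 0.57 and 0.44. L2P array 1 departed from L2P arrays 2 and 3 in the same sense, with a median difference from the M1P mean of 0.95 over the genes that rose, where the other arrays had 1.56 and 1.57. RNA quality measures moved too: the 3' minus 5' difference of the Tfrc control probe sets was 1.43, 1.72 and 2.50 on M1P arrays 1, 2 and 3 and 1.91 to 2.27 in L2P, and that of Pcx was 1.35, 0.80 and 0.59 in M1P and 0.42 to 0.51 in L2P. A fit with the 3' minus 5' difference of Actb as a covariate passed 3689 genes in place of 5525, and 46 of the 243 named genes no longer passed; the part of Tfrc and Pcx was not tested. Many results are therefore given also against M1P array 3 alone, the M1P array nearest to L2P over these genes. Because it was picked as the nearest, smaller differences against it are in part built in. It is not a typical M1P array either: in a fit with array weights, M1P arrays 1, 2 and 3 weighed 0.122, 1.83 and 0.299. Tests against M1P array 3 alone take the spread of a single M1P array to be like that of the other lines.

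The silenced gene was read first. Pcbp1 had log2 signals of 8.30, 7.95 and 8.21 on the L2P arrays and 9.98, 10.09 and 9.41 on the M1P arrays, against means of 12.68 in NMuMG and 9.25 in E1KD. All 6 arrays lay far below NMuMG, as the labels say, and every L2P array lay below every M1P array. Pcbp1 fell in L2P by 1.67 on the log2 scale (SE 0.22, adjusted p = 0.000461), a 3.19-fold difference between 2 silenced lines. It passed in each of 18 alternative settings and fell by 1.26 against M1P array 3 alone. Fam3c, the ILEI gene, was at 9.49, 9.58 and 9.56 in L2P and 8.20, 8.87 and 8.73 in M1P. It rose by 0.95 ± 0.16 (adjusted p = 0.00266), and its arrays did not overlap. Dab2 was near the low end of the signal scale, at 3.64 to 3.84 in L2P and 4.08 to 5.02 in M1P, and fell by 0.83 on the log2 scale (adjusted p = 0.0135); against M1P array 3 alone its difference was -0.33 and did not pass (adjusted p = 0.366). The cadherins, vimentin and fibronectin did not pass. E-cadherin (Cdh1) was at 10.45 to 10.51 in L2P and 10.15 to 11.24 in M1P, with a difference of -0.20 ± 0.26 (adjusted p = 0.531). Vimentin (Vim) differed by 0.26 ± 0.11 (adjusted p = 0.0923), N-cadherin (Cdh2) by 0.72 ± 0.33 (adjusted p = 0.104) and fibronectin (Fn1) by -0.25 ± 0.34 (adjusted p = 0.562). The activin subunit gene Inhba differed by -0.06 ± 0.23 and the cytokine receptor gene Lifr by -0.26 ± 0.16 (adjusted p = 0.833 and 0.2).

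Over all genes, 5525 of 18193 passed (30.4%), 2023 higher in L2P (11.1% of genes tested) and 3502 lower (19.2%). At least 2-fold differences turned the balance the other way, with 1417 genes higher (7.79%) and 634 lower (3.48%). The median difference over all genes was -0.20. The L1P mean lay nearer to L2P than to M1P for 96% of the genes that rose, 98.4% of those that fell and 88.1% of all genes. For E1KD these shares were 82.5%, 83.9% and 77.1%, and for NMuMG 49.2%, 50.3% and 53.3%. Since the fit shares 1 spread over 5 lines and that of M1P was the widest, the adjusted p-values of this comparison are likely too small and the number of calls too high. The 3 L2P arrays all lay above the 3 M1P arrays for 1576 genes (8.66%) and all below for 4418 (24.3%). Genes that both passed and did not overlap numbered 1275 higher (7.01%) and 3009 lower (16.5%). How arrays were scaled moved the split: 36.6% of calls were higher in L2P as deposited and 24.2% after each array's 75th percentile was subtracted, a scaling that moved the median of all genes to -0.34. Of the 2-fold calls, 69.1% were higher as deposited, 57.6% with that scaling and 57% after quantile normalization. With genes below the median signal left out, 1972 of 9097 genes rose and 2063 fell, so 48.9% of calls were higher. The median difference was then -0.049, so the excess of falls depended on genes of low signal. Against M1P array 3 alone, 558 genes rose (3.07%) and 585 fell (3.22%), and 948 of these 1143 (6.28% of genes tested) were among the 5525. Leaving out 1 array moved the total from 5525 to 2453 without M1P array 1, 8770 without M1P array 3, 1512 without L2P array 2 and 1521 without L2P array 3. Fitted on the 6 arrays alone, without the tighter lines, the test passed 117 genes (0.643%), 43 higher (0.236%) and 74 lower (0.407%). With same-numbered arrays as a block, 2652 rose (14.6%) and 4584 fell (25.2%), 39.8% of genes together. A set of 113 genes, 41 higher and 72 lower, passed in the fit as designed and in all 17 other settings run on all genes. Many of the single genes described next are among these. Erbb3, Cyp2c55 and Scara3 are not (adjusted p = 0.0532, 0.0721 and 0.0639 in limma's fit on the 6 arrays alone). Nor are the genes whose large rises were uneven over the M1P arrays. Most genes named from the lists further on are not among the 113.

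**Figure D1:**
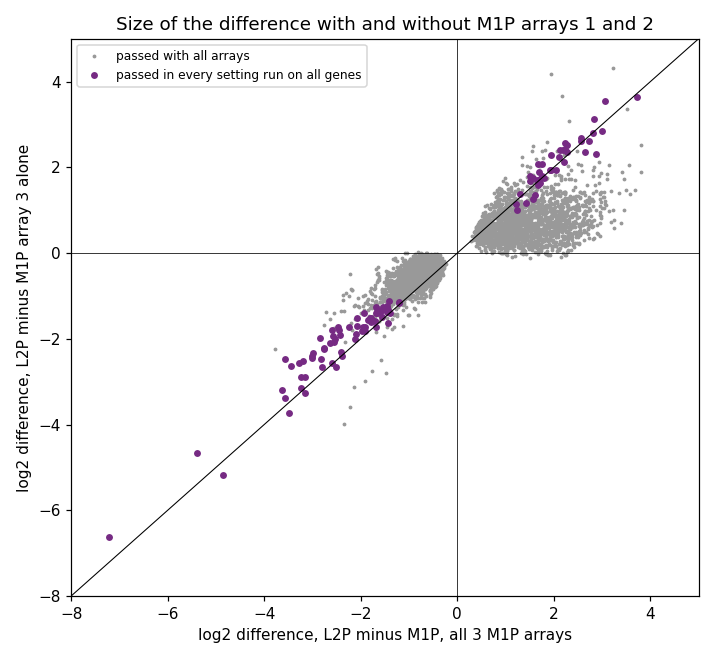
Log2 difference of each of the 5525 genes that passed, with all 3 M1P arrays (horizontal axis) and against M1P array 3 alone (vertical axis). Purple points are the 113 genes that passed in all 17 other settings run on all genes, the line marks equal values, and many grey points on the right lie well below it.

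Among genes higher in L2P, Abcb1b had the widest gap between the arrays of both lines, 3.54. It encodes a P-glycoprotein of the mouse, an efflux pump that exports many drugs. Its log2 signal was 7.30, 7.51 and 7.40 in L2P and 3.68, 3.59 and 3.76 in M1P. All 3 L2P arrays were high and all 3 M1P arrays low. The rise was 3.73 ± 0.15 (13.3-fold, adjusted p = 1.79e-08), and it was 3.65 against M1P array 3 alone. L1P had a mean of 7.75 and E1KD of 3.18, so both lung lines were high. A second, dimmer probe set of Abcb1b gave -0.45, so the rise rests on 1 of 2 probe sets. Slc4a5, a sodium bicarbonate cotransporter gene, was high in L2P and in no other of the 5 lines. Its signal was 6.24, 5.86 and 5.99 in L2P and 3.56, 2.89 and 2.47 in M1P, and the means of NMuMG, E1KD and L1P were 2.74, 2.73 and 2.76. It rose by 3.05 ± 0.21 (adjusted p = 3.55e-06).

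The promoters of both genes are shown because one was high in both lung lines and the other in the second alone. The sequences are the 250 bases before the start of the gene in RefSeq (GRCm38.p6), at chr5:8797897-8798146 on the plus strand for Abcb1b and chr6:83237125-83237374 on the plus strand for Slc4a5. Capitals mark matches on either strand to the GC box (GGGCGG) and to the CCAAT box. A match to the TATA box (TATAAA) on the other strand of Slc4a5 is left in lower case.
Abcb1b: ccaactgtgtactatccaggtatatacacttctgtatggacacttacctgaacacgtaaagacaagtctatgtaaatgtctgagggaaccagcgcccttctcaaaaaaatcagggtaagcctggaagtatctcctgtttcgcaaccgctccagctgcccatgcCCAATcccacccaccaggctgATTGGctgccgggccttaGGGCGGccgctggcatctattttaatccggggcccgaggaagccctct
Slc4a5: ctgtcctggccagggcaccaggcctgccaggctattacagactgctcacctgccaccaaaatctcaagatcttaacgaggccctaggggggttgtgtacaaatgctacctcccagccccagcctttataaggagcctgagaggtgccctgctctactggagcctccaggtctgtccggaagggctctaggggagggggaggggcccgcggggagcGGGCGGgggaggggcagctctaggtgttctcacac
The Abcb1b window held 1 GC box, 2 CCAAT matches and 9 CG dinucleotides, and that of Slc4a5 1 GC box, 1 TATA box and 6 CG dinucleotides. Over 32851 RefSeq promoter windows of this length, 32.7% held the GC box, 33.8% the CCAAT box and 12.4% the TATA box, and the median number of CG dinucleotides was 6. These letters describe the windows and were not tested for use.

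Erbb3, the receptor of the ErbB family that binds neuregulins and signals through its partners, stood at 10.89, 10.54 and 10.53 in L2P. M1P was at 8.36, 7.58 and 6.33, scattered but all below L2P. It rose by 3.23 ± 0.39 (adjusted p = 0.000269), and by 4.32 against M1P array 3. It missed the threshold only in the fit on 6 arrays (adjusted p = 0.0532), and its other probe set gave -0.17. E1KD had a mean of 4.70 and L1P of 10.43. Rgs19, a regulator that shortens G protein signals, was at 7.68, 7.15 and 7.19 in L2P and 5.11, 4.19 and 4.20 in M1P. It rose by 2.83 ± 0.22 (adjusted p = 8.9e-06), with both probe sets higher. Tph2, known as the serotonin-synthesis enzyme of neurons, was at 4.32, 5.46 and 5.42 in L2P and 2.03, 1.98 and 2.23 in M1P (rise 2.99 ± 0.26). The noncoding RNA gene Lncenc1 was at 7.43, 7.14 and 7.40 against 4.46, 4.59 and 4.71 (rise 2.73 ± 0.15, adjusted p = 4.09e-07). Like the other genes named for a wide gap or a large difference, both were chosen among genes whose L2P and M1P arrays did not overlap. Cyp2c55, a cytochrome P450 gene, had the largest rise that passed without overlap of the arrays, 3.81 ± 0.48, from 8.97, 9.73 and 9.91 in L2P against 4.40, 5.75 and 7.02 in M1P. M1P array 3 was nearer to L2P than the others, and the rise against it was 2.51 (adjusted p = 0.00136).

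Other large rises were far from even over the M1P arrays. Mki67, the proliferation antigen Ki-67, was at 10.89, 12.01 and 12.10 in L2P and 6.48, 7.27 and 10.20 in M1P. Its rise of 3.68 ± 0.82 (adjusted p = 0.00928) became 1.47 against M1P array 3 (adjusted p = 0.297). Taok1, a kinase gene, went from 3.80 to 1.88 in the same way (adjusted p = 0.19), and its 7 probe sets ranged from -0.74 to 3.80. The collagenase gene Mmp13 was at 7.81, 8.82 and 7.23 in L2P and 3.36, 4.18 and 6.07 in M1P. It rose by 3.42 ± 0.67, and against array 3 the difference was 1.89 (adjusted p = 0.154). Nbeal1, Ktn1, Ccdc88a and Med13, with rises of 3.46 to 3.57, likewise did not pass against M1P array 3. Nxf3, an mRNA export factor gene, did pass there (3.35, adjusted p = 0.0182); its L2P arrays were at 4.61, 6.90 and 7.10 and its M1P arrays at 2.52 to 2.85.

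**Figure D2:**
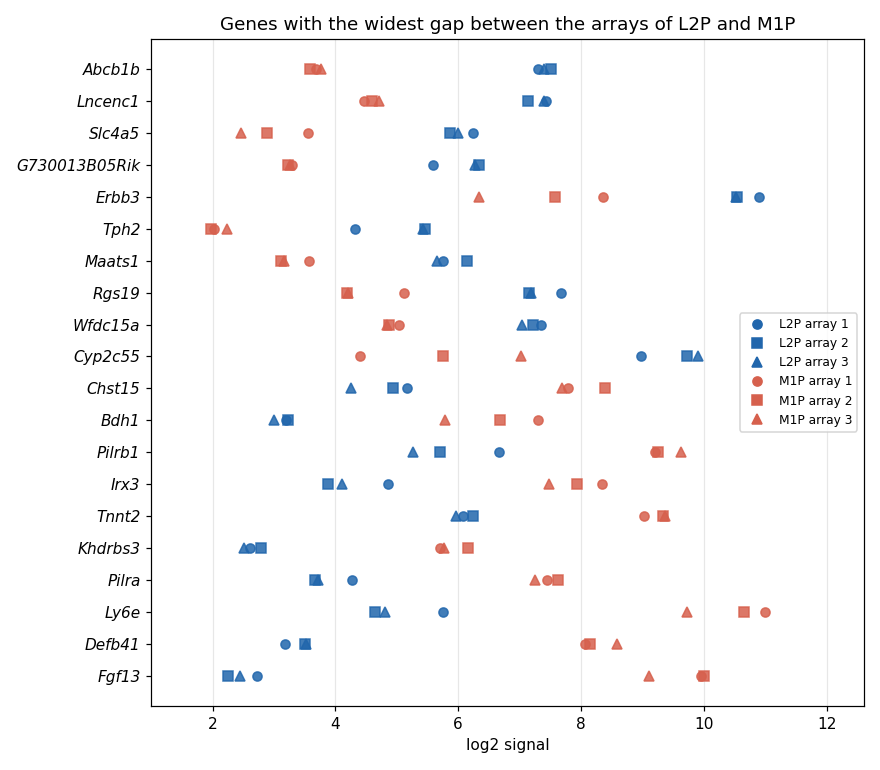
Log2 signal (horizontal axis) of the 10 genes higher and the 10 genes lower in L2P with the widest gap between the arrays of both lines, each point 1 array. Only genes whose blue L2P and red M1P points do not overlap were eligible, and Fgf13 has the widest gap, 6.39.

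Among genes lower in L2P, Fgf13 had the largest fall. It encodes a member of the fibroblast growth factor family that stays inside the cell and binds sodium channels and microtubules. The log2 signal was 2.72, 2.25 and 2.45 in L2P and 9.96, 10.01 and 9.11 in M1P. NMuMG, E1KD and L1P had means of 8.70, 9.98 and 9.66, so L2P was the one low line of the 5. The fall was 7.22 on the log2 scale (SE 0.23, 149-fold, adjusted p = 2.6e-09), and the L2P signal lay near the low end of the signal scale. A second probe set fell by 1.19. Ly6e, a GPI-anchored surface protein of the Ly6 family, was at 5.75, 4.64 and 4.80 in L2P and 10.99, 10.66 and 9.73 in M1P. It fell by 5.39 (SE 0.37, 42.0-fold, adjusted p = 3.55e-06), and here M1P was the high line, since NMuMG, E1KD and L1P had means of 3.99, 6.79 and 5.21. Defb41, a beta-defensin gene, showed the same layout: 3.18, 3.51 and 3.52 in L2P, 8.07, 8.15 and 8.58 in M1P, and a mean of 5.78 in E1KD. It fell by 4.86 (SE 0.29, adjusted p = 1.11e-06).

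Irx3, Stra6 and Tnnt2 were also among the large falls. Irx3, a homeobox transcription factor, was at 4.85, 3.88 and 4.11 in L2P and 8.34, 7.93 and 7.47 in M1P and fell by 3.63 (SE 0.27, adjusted p = 5.61e-06). Stra6, the receptor that takes up retinol from its plasma carrier, was at 4.62, 4.31 and 4.14 in L2P and 8.57, 8.40 and 6.83 in M1P and fell by 3.58. For both genes the means of NMuMG, E1KD and L1P lay between 4.35 and 4.98, near L2P, so M1P was the line that stood apart. Tnnt2, known as cardiac troponin T, went the other way in this respect: M1P (9.02, 9.34 and 9.37) lay with NMuMG and E1KD, whose means were 8.80 and 8.32. L2P (6.07, 6.24 and 5.96) lay below, and so did L1P, with a mean of 6.91. Tnnt2 fell by 3.15 (SE 0.24). Khdrbs3, an RNA-binding splicing regulator, was at 2.61, 2.78 and 2.51 in L2P and 5.71, 6.16 and 5.77 in M1P, and fell by 3.25. Its means were 7.57 in E1KD, 3.58 in NMuMG and 2.82 in L1P. Chst15, which adds sulfate to chondroitin sulfate chains, fell by 3.16 and Bdh1, an enzyme of ketone body metabolism, by 3.45. Camk2n1, an inhibitor of calmodulin kinase II, fell by 3.28. Scara3, a scavenger receptor gene, fell by 3.77 with all arrays and by 2.24 against M1P array 3, where the arrays of M1P read 6.81, 6.52 and 4.38.

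Pilra and Pilrb1, neighbouring genes of paired immunoglobulin-like receptors, fell together. Pilra was at 4.27, 3.66 and 3.71 in L2P and 7.44, 7.63 and 7.25 in M1P, and Pilrb1 at 6.66, 5.71 and 5.27 in L2P and 9.21, 9.25 and 9.62 in M1P. The falls were 3.56 (SE 0.23, adjusted p = 3.14e-06) and 3.48 (SE 0.31, adjusted p = 2.48e-05). The genes are close relatives, so signal shared between their probe sets is uncertain. Their promoter windows (250 bases before the start, RefSeq, GRCm38.p6, minus strand, at chr5:137836279-137836528 and chr5:137858050-137858299) are shown because the pair fell together and the windows are nearly the same. Capitals mark the longest identical run.
Pilra: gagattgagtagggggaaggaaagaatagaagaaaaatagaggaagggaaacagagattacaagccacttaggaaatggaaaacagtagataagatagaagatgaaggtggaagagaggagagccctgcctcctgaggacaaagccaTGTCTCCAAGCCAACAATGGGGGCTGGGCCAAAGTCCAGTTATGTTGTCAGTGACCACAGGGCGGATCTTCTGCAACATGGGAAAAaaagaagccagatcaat
Pilrb1: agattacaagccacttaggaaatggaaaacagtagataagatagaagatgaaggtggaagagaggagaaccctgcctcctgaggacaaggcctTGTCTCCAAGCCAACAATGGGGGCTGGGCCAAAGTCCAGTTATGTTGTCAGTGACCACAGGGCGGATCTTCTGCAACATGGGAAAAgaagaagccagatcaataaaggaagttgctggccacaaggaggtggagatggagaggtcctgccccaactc
Of 196 aligned bases, 98% were identical, and the longest identical run was 86 bases.

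The 113 genes held further named genes, singled out here after their values were seen. Of those that rose, Prss23, a secreted serine protease gene, was at 9.20, 9.87 and 9.75 in L2P and 5.86, 7.04 and 7.30 in M1P (rise 2.87 ± 0.35). Zic5, a zinc finger factor of neural development, was at 6.27, 6.80 and 6.88 against 3.22, 4.47 and 4.29 (rise 2.66 ± 0.28). Procr, the endothelial protein C receptor, which also marks a population of mammary stem cells in the mouse, was at 10.09, 9.83 and 9.49 against 8.10, 7.36 and 7.39 (rise 2.19 ± 0.27, adjusted p = 0.000293). All of these L2P arrays lay above all M1P arrays. The reproductive homeobox gene Rhox5, on chromosome X, rose by 1.80, and the lysozyme gene Lyz1, which has a close paralog in Lyz2, by 2.27. Of those that fell, Flnc (filamin C, an actin crosslinker) was at 5.25, 5.00 and 5.12 in L2P and 8.64, 8.21 and 7.51 in M1P and fell by 3.00. Blnk, an adaptor of B cell receptor signalling, was at 5.76, 5.26 and 5.46 against 8.09, 8.11 and 8.07 and fell by 2.60. Its M1P arrays agreed closely, with an SD of 0.020. Pmp22, a myelin membrane protein, fell by 2.63, Upk1b, a uroplakin of urothelium, by 2.41 and Sprr1b, a cornified envelope protein, by 2.75. Hhex, a homeobox factor, fell by 1.94 and Arl3, a small GTPase of the cilium, by 1.21.

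In the lists below the counts are to be read against all genes, of which 11.1% rose and 19.2% fell, or 3.07% and 3.22% against M1P array 3 alone. Many chromatin genes were higher in L2P with all arrays, and the size of the difference depended on M1P arrays 1 and 2. Of 41 chromatin remodellers and histone methyltransferases measured, 24 rose (58.5%) and none fell, with a median difference of 1.23 against -0.20 over all genes. Med13, a Mediator subunit, rose by 3.55, Atrx, a chromatin remodeller, by 3.45, the cohesin loader Nipbl by 2.76 and Suz12, a subunit of Polycomb repressive complex 2, by 2.46. Relative to each gene's L2P mean, the list's median was -2.01, -0.92 and -0.63 on M1P arrays 1, 2 and 3 and -0.59, 0.28 and 0.26 on L2P arrays 1, 2 and 3, so that L2P array 1 reached the level of M1P array 3. Against M1P array 3 alone, 3 members rose and none fell, and with L2P array 1 left out as well, a setting added after the data were seen, 15 rose and none fell. Probe sets of 1 gene often disagreed, from -0.41 to 3.45 for Atrx and from 0.10 to 3.55 for Med13. Of 41 cell cycle and DNA replication genes, 11 rose (26.8%), 1 fell and 29 did not pass, with a median of 0.21 (0.08 after 75th percentile scaling). Mki67 (above), the centromere protein gene Cenpf (3.18), the topoisomerase gene Top2a (2.80) and Cenpe (2.70) led them. Cdk4, the G1 kinase, was the 1 that fell, by 0.60. Against M1P array 3, Ccnd2 (cyclin D2) alone passed, as higher, and with L2P array 1 left out as well, 2 members rose and 1 fell. In that last setting 1225 of all genes rose (6.73%) and 1648 fell (9.06%), 15.8% together.

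**Figure D3:**
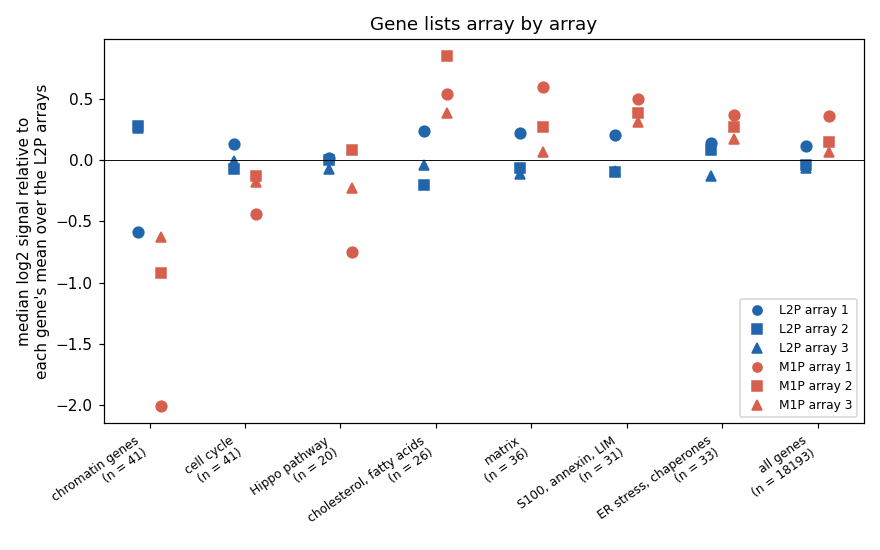
Median log2 signal of gene lists on each array (vertical axis), relative to each gene's mean over the 3 L2P arrays, for 7 lists and for all 18193 genes. L2P points are blue and M1P points red, and the chromatin list runs from -2.01 on M1P array 1 to -0.63 on M1P array 3.

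Genes of cholesterol synthesis were among those lower in L2P. Of 26 cholesterol and fatty acid synthesis genes, 13 fell (50%) and 1 rose, with a median of -0.65, and that median was -0.78 to -0.69 under 3 other scalings of the arrays. Mvk (mevalonate kinase) was at 6.65, 5.74 and 6.23 in L2P and 8.70, 7.69 and 7.42 in M1P and fell by 1.73 (adjusted p = 0.00175). Mvd, the next decarboxylase of the pathway, fell by 1.60, the farnesyl diphosphate synthase gene Fdps by 1.35, Fdft1, which commits the pathway to sterols, by 1.24, and Srebf2, the transcription factor of the pathway, by 1.07. No L2P array of Mvk or Mvd reached an M1P array. Acaca, the enzyme that commits carbon to fatty acids, was the 1 that rose (1.10), and did not pass against M1P array 3 (adjusted p = 0.0983). Against that array 4 members fell, Mvk, Mvd and Fdps by 1.22, 1.13 and 0.66 and Nsdhl, and the median was -0.39.

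Chaperone genes divided. Of 33 ER stress and chaperone genes, 13 fell and 3 rose, while the list's median was 0.02 (-0.19 after quantile normalization), so the median and the count of calls differ in direction. The inducible heat shock gene Hspa1b was at 4.53, 4.29 and 4.19 in L2P and 7.33, 7.17 and 6.26 in M1P and fell by 2.58 (adjusted p = 9.59e-05). Hspa1b has a near-identical copy, Hspa1a, so its signal may be shared. Sdf2l1, an ER-resident chaperone partner, fell by 1.77, the small heat shock gene Hspb8 by 1.26 and the ER stress gene Creld2 by 1.23. All 3 had L2P arrays below every M1P array and passed against M1P array 3, where 6 members of the list fell and 1 rose. Dnajc3, an ER co-chaperone (1.36), the lectin chaperone Canx (1.27) and the stress sensor Ern1 (0.77) rose.

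Calcium-binding and LIM proteins passed in both directions. Of 31 S100 proteins, annexins, galectins and LIM proteins, 11 fell (35.5%) and 3 rose (9.68%), and 4 and 1 did so against M1P array 3 (median -0.38, and -0.52 to -0.38 under 3 other scalings). S100a8, a subunit of the neutrophil-type protein calprotectin, was at 5.37, 4.19 and 3.69 in L2P and 6.42, 5.73 and 7.54 in M1P and fell by 2.14. The LIM protein gene Crip2 was at 10.03, 9.62 and 9.82 against 11.31, 11.11 and 11.22 and fell by 1.39, while its relative Crip1 rose by 0.76. S100a4, a calcium-binding protein often used as a mesenchymal marker and counted with the mesenchymal genes rather than in these 31, was at 11.33, 11.18 and 11.17 in L2P and 13.26, 13.33 and 13.03 in M1P. It fell by 1.98 (SE 0.14, adjusted p = 5.02e-06) and passed in all 18 alternative settings.

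Ligands and receptors of growth factor pathways moved in both directions. Of 41 Wnt genes, 5 fell (12.2%) and 6 rose (14.6%), with a median of -0.25, and of -0.09 against M1P array 3. Neither share was far from that of all genes with all arrays. The ligands Wnt4, Wnt10a and Wnt7b fell, with differences of -2.76, -2.37 and -1.85, and so did the receptor Fzd1 (-2.07). Wnt4 was at 5.16, 4.83 and 4.75 in L2P and 8.64, 7.79 and 6.58 in M1P, with M1P array 3 nearest to L2P. Against that array Wnt4, Wnt7b and Fzd1 passed and Wnt10a did not (adjusted p = 0.147). The receptors Fzd5, Fzd6 and Lrp6 rose by 1.14, 1.01 and 1.69, and the destruction complex genes Apc and Gsk3b by 2.46 and 1.75. Neither Apc nor Lrp6 passed against M1P array 3 (adjusted p = 0.324 and 0.186), with Lrp6 at 0.85. Of 38 TGF-beta, activin and BMP genes, 5 rose and 7 fell (13.2% and 18.4%, near the shares of all genes), and 1 and 1 against M1P array 3. The receptor genes Bmpr2, Bmpr1a and Acvr2a rose by 2.86, 2.48 and 2.34 and none of these passed against M1P array 3. Inhbb, an activin subunit, was at 6.22, 5.05 and 4.56 in L2P and 7.81, 7.68 and 7.35 in M1P. It fell by 2.33 (adjusted p = 0.00168), and by 2.07 against M1P array 3.

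Of 32 FGF, VEGF, PDGF, HGF and IGF genes, 3 rose and 7 fell (9.38% and 21.9%, near the shares of all genes), and 2 and 3 against M1P array 3. Beside Fgf13, Vegfc, the ligand that drives growth of lymphatic vessels, was at 4.24, 4.57 and 4.51 in L2P and 6.01, 6.77 and 5.95 in M1P and fell by 1.81 (adjusted p = 0.00163). Igfbp7, a secreted IGF-binding protein, fell by 1.90, with L2P at 9.49 to 9.99 and M1P at 10.93 to 12.09. Met, the HGF receptor, rose by 2.05 and did not pass against M1P array 3 (adjusted p = 0.505). Of 21 ErbB genes, 3 rose and 2 fell (14.3% and 9.52%), and 1 and 0 against M1P array 3. The neuregulin gene Nrg1, whose product binds the Erbb3 receptor, was at 6.07, 6.93 and 6.87 in L2P and 4.69, 5.92 and 5.53 in M1P and rose by 1.24 (adjusted p = 0.0123), but did not pass against M1P array 3 (adjusted p = 0.0648). Erbb2 fell by 0.71, and its difference against M1P array 3 was -0.07 (adjusted p = 0.892). Of 20 Hippo pathway genes, 6 rose (30%) and 2 fell (10%), where 11.1% and 19.2% of all genes did. Tead1, a transcription factor that partners Yap, had its lowest L2P array at 9.20 and its M1P arrays at 6.54, 8.44 and 7.78 (rise 2.02, adjusted p = 0.0073). Tead2 fell by 1.02 and Tead3 by 0.55. The list's median was 0.27 with all arrays and 0.23 against M1P array 3, where those of all genes were -0.20 and -0.072.

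Epithelial, mesenchymal and matrix genes showed single members that moved within lists that mostly did not pass. Of 36 junction and polarity genes, 2 rose and 5 fell, and 2 and 1 against M1P array 3. The tight junction scaffold Tjp1 rose by 2.00 and Marveld2, a tight junction membrane protein, by 1.03; against M1P array 3 Marveld2 passed and Tjp1 did not (adjusted p = 0.00608 and 0.0813). Of 23 keratins and mammary lineage markers, 1 rose and 4 fell, and 1 and 2 against M1P array 3. The luminal mucin Muc1 was at 7.67, 6.99 and 6.68 in L2P and 9.89, 9.16 and 8.65 in M1P and fell by 2.12 (adjusted p = 0.000589). The luminal transcription factor Gata3 was at 5.47, 5.77 and 5.31 against 4.37, 4.83 and 4.03 and rose by 1.11. Of 24 mesenchymal genes, 5 rose and 4 fell, and 0 and 1 against M1P array 3; S100a4, Acta2 and Cnn1 were among those that fell. Of the transcription factors, Zeb2, Snai2 and Zeb1 rose by 2.19, 1.65 and 1.49, and none passed against M1P array 3 (0.39, 1.20 and 0.15). Of 6 connexins, Gja1 rose by 2.07 and Gjb5 fell by 1.65.

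Of 36 collagens, laminins and other matrix genes, 8 fell (22.2%, where 19.2% of all genes fell) and none rose, where 11.1% of all genes did. The list's median was -0.35, against -0.20 over all genes. Against M1P array 3 alone the list's median was -0.07, with differences of -1.37 for Col6a1, -1.08 for Col6a2 and 1.24 for Lamc1, a laminin chain. Col6a1 was at 4.57, 3.90 and 3.44 in L2P and 7.51, 7.24 and 5.34 in M1P and fell by 2.73 (adjusted p = 0.00203). Col6a2, whose product joins it in type VI collagen, fell by 1.76 and Col6a3 by 0.81. For these 2 leading genes M1P was the high line, with means of NMuMG, E1KD and L1P from 3.57 to 3.93 for Col6a1 and 5.13 to 5.33 for Col6a2. Of 29 proteases and inhibitors, 4 rose and 5 fell, and 0 and 2 against M1P array 3. Ctsh, a lysosomal cysteine protease, was at 6.22, 5.58 and 5.70 in L2P and 9.62, 9.15 and 8.34 in M1P. It fell by 3.21 (SE 0.36, adjusted p = 0.000164), with both probe sets lower. Of 28 integrins and adhesion receptors, 5 rose and 5 fell, and 2 and 1 against M1P array 3. Itgb7, the beta-7 integrin subunit best known in lymphocytes, was at 8.39, 8.33 and 8.56 against 6.91, 6.96 and 6.66 and rose by 1.58 (adjusted p = 0.000188). Itga6, a laminin receptor subunit, rose by 2.03 and did not pass against M1P array 3 (adjusted p = 0.0533).

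Of 34 cytokines, chemokines and receptors, 5 rose and 4 fell (11.8%), and 3 and 0 against M1P array 3. The list's median, -0.20, was that of all genes, so the list as a whole did not stand out. Cxcl3, a neutrophil-attracting chemokine, was at 9.18, 9.42 and 8.52 in L2P and 8.53, 7.90 and 4.86 in M1P, against means of 2.49 in E1KD and 2.50 in L1P. The M1P arrays spanned so wide a range that the rise of 1.94 ± 0.65 (adjusted p = 0.0415) was 4.18 against array 3 alone, and M1P array 1 overlapped L2P. Cxcl2, a related chemokine, was at 4.18, 4.44 and 3.92 against 2.61, 2.49 and 2.48 and rose by 1.65 (SE 0.13, adjusted p = 7.44e-06); L1P had a mean of 2.12. Ccl20 rose by 2.16, and Il15, a growth factor of lymphocytes, by 1.69 without overlap. Ccl2 rose by 0.69 (adjusted p = 0.0493), but not when same-numbered arrays were blocked (adjusted p = 0.0524). Of 30 interferon-stimulated genes, 2 rose and 7 fell (23.3%), and 2 and 2 against M1P array 3. Oasl1 was at 5.82, 5.78 and 5.72 in L2P and 8.56, 7.96 and 7.50 in M1P and fell by 2.23 (adjusted p = 0.000266). Irf9, a subunit of the interferon-activated transcription factor, rose by 1.06. Of 14 genes of MHC class I presentation, 3 fell and none rose, and none passed against M1P array 3.

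Among 26 stem cell and tumour-initiating markers, 3 rose and 4 fell (11.5% and 15.4%, near the shares of all genes). The list's median was -0.11 with all arrays and 0.01 against M1P array 3, where those of all genes were -0.20 and -0.072. Beside Abcb1b and Procr, Abcg2, another drug efflux pump, was at 5.95, 6.12 and 5.81 in L2P and 6.69, 7.47 and 8.46 in M1P and fell by 1.58 (adjusted p = 0.00517). So Abcb1b and Abcg2 passed in opposite directions. Of 15 genes linked to breast cancer spread to lung, 3 rose and 5 fell, and 1 and 0 against M1P array 3. Ptgs2, the inducible cyclooxygenase, rose by 2.49 and did not pass against M1P array 3 (adjusted p = 0.314). Of 24 imprinted genes and X inactivation genes, 6 fell (25%) and none rose, but 17 of the 24 were below 5 on all 6 arrays. The list's median was -0.30, where that of all genes was -0.20. Against M1P array 3 alone these medians were -0.20 and -0.072. Peg3, an imprinted zinc finger gene, was at 3.31, 2.71 and 2.54 in L2P and 3.56, 5.22 and 6.85 in M1P. It fell by 2.36, passed against M1P array 3 too (adjusted p = 0.00139), and had a mean of 11.17 in E1KD.

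Metabolic and housekeeping genes passed in both directions. Of 37 Nrf2 targets, glutathione enzymes and peroxiredoxins, 6 rose and 11 fell (16.2% and 29.7%). The list's median was -0.19, and 0.03 against M1P array 3, where those of all genes were -0.20 and -0.072. Gsta2 rose by 2.32 and Gsta4, which clears lipid aldehydes, by 1.18, while Gss, the last enzyme of glutathione synthesis, fell by 1.21 with all arrays and did not pass against M1P array 3 (-0.71, adjusted p = 0.109). Of 26 nuclear genes of mitochondrial respiration, 8 fell (30.8%) and 1 rose, and 2 and 1 against M1P array 3. Ndufb8, a complex I subunit, was at 11.04, 10.77 and 10.82 in L2P and 12.33, 11.80 and 11.77 in M1P and fell by 1.09. Of 28 amino acid genes, 5 rose and 4 fell (17.9% and 14.3%), and 2 and 2 against M1P array 3. Got1, the cytosolic aspartate aminotransferase, was at 7.86, 7.49 and 7.66 against 9.64, 9.34 and 9.07 and fell by 1.68 (adjusted p = 2.48e-05), and the glutamine carrier gene Slc38a1 rose by 1.99. Of 28 hypoxia and glycolysis genes, 5 rose and 6 fell (17.9% and 21.4%). The list's median was -0.16, and 0.02 against M1P array 3, where those of all genes were -0.20 and -0.072. Car12, a membrane carbonic anhydrase, rose by 1.52, with L2P at 5.38 to 6.11 and M1P at 4.09 to 4.50. Of 29 p53 targets and cell cycle inhibitors, 6 rose and 7 fell, and 1 and 0 against M1P array 3, with Mdm2 at 2.13 and Cdkn2a at -1.65; neither passed against M1P array 3 (adjusted p = 0.0563 and 0.432). Of 31 proteasome subunits, 4 rose and 7 fell (12.9% and 22.6%, near the shares of all genes), and 1 and 1 against M1P array 3. Of 24 ribosomal protein genes, Rpl14 alone passed, at -1.02; against M1P array 3, Rps6 passed too.

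Markers of other cell types that a tumour or lung could contribute ranged from the low end of the scale to high signals. In bulk RNA, fewer cells of a type and less RNA per cell cannot be told apart. Of 13 fibroblast markers, 12 were below 5 on all 6 arrays, and their summed linear signal was 156 to 173 in L2P and 162 to 275 in M1P. Mfap5 was the 1 that passed, with a rise of 0.84. Col1a1 was at 3.32 to 3.53 in L2P and 3.36 to 4.17 in M1P. Of 13 endothelial markers 2 fell and none rose, at summed signals of 475 to 518 and 525 to 558, and Pecam1 was at 2.70 to 3.33 in L2P and 2.85 to 3.09 in M1P. Of 15 leukocyte markers 5 fell and none rose with all arrays; against M1P array 3 none fell and Cd68, a lysosomal protein of macrophages, rose by 1.67. The summed signals were 1030 to 1654 in L2P and 1601 to 2583 in M1P. The sum was carried by Cd14, a receptor for bacterial lipopolysaccharide, at 9.55 to 10.35 in L2P and 10.38 to 11.10 in M1P, which did not pass against M1P array 3 (adjusted p = 0.371). Ptprc, which defines leukocytes, was at 2.25 to 2.58 in L2P and 2.39 to 2.56 in M1P.

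No lung epithelial marker passed as higher in the line taken from lung. Of 14 alveolar and airway markers, 6 fell and none rose, and 3 and 0 against M1P array 3, with summed signals of 644 to 815 in L2P and 787 to 1589 in M1P. The surfactant gene Sftpc was at 3.53 to 4.17 in L2P and 3.55 to 4.54 in M1P, and Scgb1a1, the club cell marker, at 2.28 to 2.80 and 2.45 to 2.82. Foxj1, the factor of ciliated cells, was at 5.12, 4.84 and 4.73 in L2P and 8.40, 7.78 and 6.44 in M1P and fell by 2.65 (adjusted p = 0.000544). Of 9 mammary secretory markers 4 fell and none rose, and 1 fell against M1P array 3, at 165 to 211 and 345 to 571. The casein gene Csn3 was at 5.41, 6.24 and 5.91 against 8.06, 7.57 and 7.67 and fell by 1.91, while Csn2 and Csn1s1, which also fell, were below 4 on all 6 arrays. Of 9 myoepithelial markers, Mylk rose, and Acta2 and Cnn1 fell. Of 7 adipocyte markers Fabp4 rose by 0.90 from a low signal, of 9 muscle markers 2 fell, and none of 3 erythrocyte markers passed. The simple epithelial keratins were high in both lines: Krt8 was at 13.63 to 13.99 in L2P and 13.93 to 14.13 in M1P. The part of other cells in the differences was not tested.

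The genes that differed were unevenly spread over the chromosomes. On chromosome 14, 190 of 641 measured genes rose (29.6%, against 11.1% of all genes) and 56 fell (8.74%, against 19.2%). On chromosome 19, 200 of 609 fell (32.8%) and 13 rose (2.13%), and on chromosome 5, 370 of 1122 fell (33%) and 51 rose (4.55%). The same 3 chromosomes stood out against M1P array 3 alone: 13.3% of chromosome 14 genes rose, where 3.07% of all genes did, and 9.2% of chromosome 19 and 7.49% of chromosome 5 genes fell, where 3.22% of all genes did. Chromosome 11 had 6.31% higher there, and 15.9% with all arrays. Falls were not confined to these: with all arrays 26.1% of the 1413 genes of chromosome 7 fell, 25.5% of the 834 of chromosome 17 and 26% of the 724 of chromosome 15. Of the 41 rises that passed in every setting run on all genes, 9 lay on chromosome 14, which held 641 of the 18193 genes. Of the 72 such falls, 11 lay on chromosome 5, 8 on chromosome 19, 8 on chromosome 7 and 7 on chromosome 17. These chromosomes held 1122, 609, 1413 and 834 of the 18193 genes, in that order. Gene copy number was not measured, and genes of 1 chromosome are not independent of each other.

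**Figure D4:**
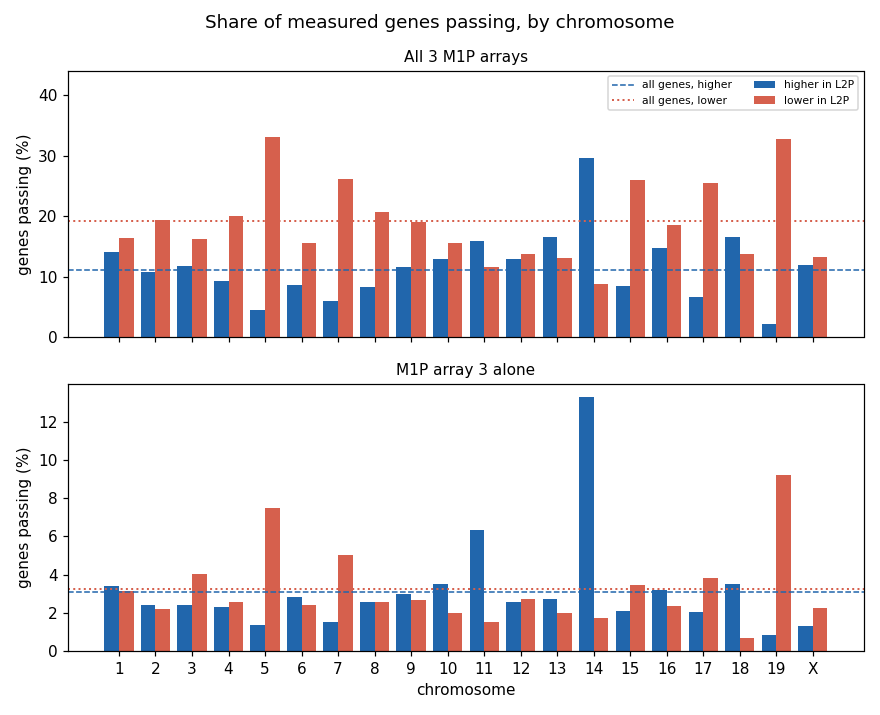
Percent of measured genes that passed as higher (blue) or lower (red) in L2P on each chromosome, with all 3 M1P arrays (top) and against M1P array 3 alone (bottom); the vertical axes start at 0 and dashed and dotted lines give the share over all genes. Chromosome 14 has the tallest blue bar in both panels, 29.6% and 13.3%.

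On chromosome 14 the rises included a run of neighbours, chosen after the values were seen. From Pck2 to Nop9 in the RefSeq gene order (GRCm38.p6), 18 genes were measured, of which 14 rose, 2 fell and 2 did not pass. The rises were of similar size, from 0.97 for Dcaf11 to 1.81 for Pck2, the mitochondrial PEP carboxykinase. Nedd8, the ubiquitin-like protein that activates cullin ligases, was at 12.57, 12.40 and 12.43 in L2P and 10.85, 10.65 and 10.88 in M1P and rose by 1.67 ± 0.11 (adjusted p = 2.29e-06). Psme1, a proteasome activator subunit, was at 10.89, 10.39 and 10.46 against 9.54, 9.07 and 8.58 (rise 1.52), and Tinf2, a component of the telomere-capping shelterin complex, at 10.19, 9.84 and 9.93 against 8.66, 8.47 and 8.24 (rise 1.53). Dhrs1 rose by 1.76, Nop9 by 1.72 and Ipo4, an importin, by 1.44. For all 14 the 3 L2P arrays lay above the 3 M1P arrays, and all 14 passed against M1P array 3. The mean of L1P was above that of M1P for 14 of them and that of E1KD for 0. The 4 others, Fitm1, Rec8, Tssk4 and Tgm1, had mean signals no higher than 6.78 in either line, and of the genes that rose Tm9sf1 and Irf9 were in that range too.

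**Figure D5:**
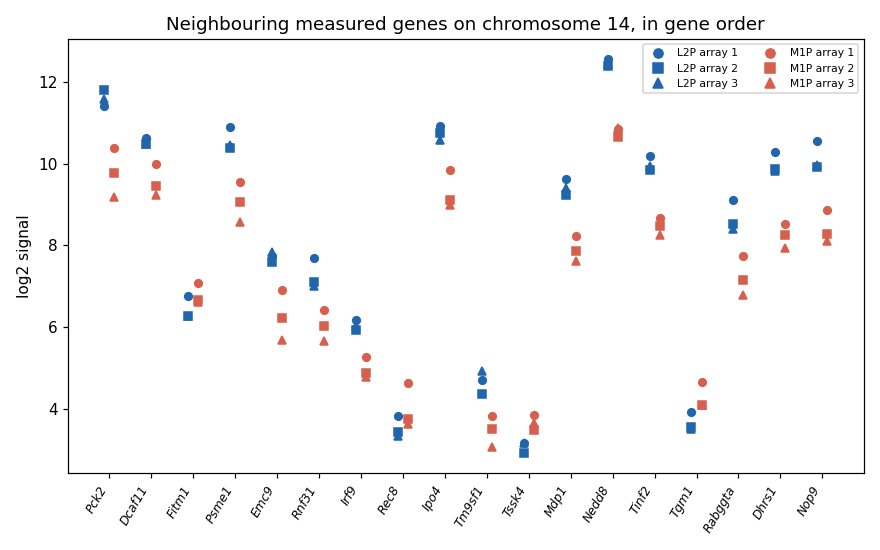
Log2 signal (vertical axis) of the 18 measured genes from Pck2 to Nop9 in their order on chromosome 14, each point 1 array, L2P blue and M1P red. In 14 genes every blue point lies above every red one.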

How the data were processed

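RNA of 5 mouse lines, 3 arrays each (100 ng total RNA, 3' IVT labelling), was hybridised to Affymetrix expression arrays. The values deposited by the authors are log2 signals; the submitters' processing notes name RMA, MAS5 and Affymetrix Expression Console, without versions or order. Detection calls were not used here. Of 45101 probe sets, 34945 had 1 gene symbol (34741 updated through the Entrez identifier), 932 had several and 9160 none. Each gene was read from its brightest probe set over the 15 arrays, which gave 18193 genes. No pair of arrays held identical values. limma 3.58.1 in R 4.3.3 was fitted to all 15 arrays with 1 coefficient per line, and p-values of L2P minus M1P were Benjamini-Hochberg adjusted over all genes (threshold 0.05, 10 residual and 2.98 prior degrees of freedom). The number of arrays limits the precision.

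The fit was tested on simulated data with known changes, 200 changed genes among 18193, and the lines' own spreads. It recovered 70.6% of genes changed by 1 on the log2 scale and 93.8% of those changed by 2. Changed genes that were called had the right direction, but 46.2% of its calls there were unchanged genes. The simulated noise was drawn separately for each gene and array, so it held no shift shared by many genes of an array. The share of false calls in the real data was not tested. Same-numbered L2P and M1P arrays had deviations with correlations of 0.755, 0.130 and 0.691, while differently numbered pairs ranged from -0.769 to 0.640, with L2P 2 and M1P 3 at the top. By the rule that all same-numbered pairs exceed 0.1, the numbers, which come from the labels, were also used as a block, though the 0.130 of the second pair is hardly above the 0.109 of L2P 3 with M1P 2. Genes named are those of the hnRNP E1 question, the 10 largest differences and the 10 widest gaps in each direction among genes whose arrays did not overlap, and up to 4 members per list and direction. Other members of the 113 genes, of the chromosome 14 run and of the lists (Suz12, Srebf2, Fzd5, Fzd6, Col6a3, Lamc1, Rps6, Krt8 and cell type markers that define a type) were named after their values were seen. Members and lists were chosen with earlier results of these data known. Alternatives changed the arrays in the fit, the scaling, the filter on low signal, the probe set, the weights, the variance model and an RNA quality covariate. Promoter windows are RefSeq's (GRCm38.p6).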

Additional observations from a re-analysis of the deposited data

Results flagged for a closer look

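Probe sets without a single gene symbol were left out of the comparison above, and some carried signal. Of 10092 such probe sets, 449 were higher and 738 lower in L2P by limma's adjusted p. Probe set 1434958_at was at 5.83, 7.49 and 7.31 in L2P and 2.95, 2.92 and 4.52 in M1P, a difference of 3.41 ± 0.65 (adjusted p = 0.00913). Probe set 1422618_x_at was at 5.35, 6.23 and 5.96 against 2.46, 2.17 and 2.75, a difference of 3.39 ± 0.23 (adjusted p = 2.09e-06). Probe set 1426547_at was at 5.82, 5.25 and 4.80 against 8.58, 10.08 and 10.29, a difference of -4.36 ± 0.45 (adjusted p = 9.85e-05). Probe set 1421571_a_at was at 7.91, 6.99 and 6.89 against 11.38, 11.03 and 9.58, a difference of -3.40 ± 0.49 (adjusted p = 0.00141). In each of these 4 the arrays of the lines did not overlap.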

How the results depend on the processing

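The number of genes that passed, 5525, depended on which arrays entered the fit. It was 117 on the 6 arrays alone (116 at least 2-fold, against 2051), 8754 with array weights, 1143 without M1P arrays 1 and 2 (537 at least 2-fold) and 2873 without L2P array 1 as well (1055 at least 2-fold). Leaving out 1 array at a time gave 1512 to 8770 genes, and 760 to 3492 at least 2-fold. The count rose without M1P replicate 3 (8770) and without L2P replicate 1 (7120). It dropped without any of the other L2P or M1P replicates, most without L2P replicate 2 (1512). Settings that leave out arrays also have fewer arrays in the fit, and the causes were not tested. With the replicate block 7236 genes passed and 2390 were at least 2-fold; of 243 named genes it lost Ccl2 and changed no other call. On the 6 arrays alone 40 of these genes stayed on their side of the threshold and 203 no longer passed; without M1P arrays 1 and 2, 99 stayed and 142 no longer passed. With the Actb 3' minus 5' difference as a covariate 3689 genes passed.

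Some differences changed sign, none of them past the threshold after the change. Inhba (-0.06) was 0.19 with array weights, 0.02 with the Actb covariate, 0.06 without M1P replicate 3 and 0.03 without L2P replicate 1, and leaving out 1 array at a time gave -0.19 to 0.06. Cdh1 (-0.20) was 0.08 without M1P replicate 2, 0.32 without M1P replicates 1 and 2 and 0.33 without L2P replicate 1 as well, and leaving out 1 array at a time gave -0.47 to 0.08. Fn1 (-0.25) was 0.36 and 0.11 in the last 2 settings. Psmd11 (0.57) was -0.48 from its probe set of largest variance. The cause was not tested.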
